A study of Mus musculus with 111 samples.

Results

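The cauda epididymis is the storage end of the duct in which sperm mature, and this comparison asked how its small RNA differed between mice kept on a low-protein diet and mice kept on the control diet. The members are the 4 cauda libraries of the low-protein group and the 5 of the control group, 9 of 111 libraries of the series, chosen by their label alone. Libraries of sperm taken from the cauda carry another label and were not among them. The low-protein food held 10% protein in place of 18%, with sucrose making up the mass, and the animals ate it or the control food for 6 months, housed in groups with free access to food and water. The main test also used 9 further cauda libraries to estimate the spread. Those came from mice on a high-fat diet (60% of calories from fat) or its own control diet (7.2%), also for 6 months. The sources used here do not give strain, age or the number of mice behind a library, and no label ties a library to 1 mouse. The p-values therefore describe spread from library to library, some of which may be technical. RNA ends were first repaired, and OTTR-seq then made the libraries with a reverse transcriptase that joins both adapters during cDNA synthesis. Counts are reads per named small RNA. The names of the count columns end in gt65, a code that the labels leave unexplained, so whether whole RNAs or fragments were counted is unknown here.

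Most reads in such libraries come from structural RNAs and their fragments. Cytosolic tRNAs carry amino acids to the ribosomes of the cytoplasm and are cut into fragments that epididymal cells hold in large amounts and pass to sperm in vesicles. Mitochondria make their own tRNAs and ribosomal RNAs from 1 circular genome, transcribed from both strands into long precursors from which the tRNAs are cut out. Small nucleolar RNAs (snoRNAs) guide chemical marks on ribosomal RNA, small nuclear RNAs (snRNAs) build the spliceosome, and 7SL is the RNA of the signal recognition particle, which sends new proteins to the endoplasmic reticulum. Fragments of glycine, lysine and histidine tRNAs are known to be raised in sperm of males on a low-protein diet.

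In short, mitochondrial RNAs lay higher in the low-protein libraries and most cytosolic tRNAs lower once libraries were scaled, but no single feature passed the test. The unscaled share of cytosolic tRNAs as a class gave no direction. Of 218 features with enough reads, edgeR called 0 at an adjusted p under 0.05, 0% of those tested, with 45 at an unadjusted p under 0.05, 20.6% of those tested. Of these 14 were higher (6.42% of those tested) and 31 lower (14.2%) on the low-protein diet. The lowest adjusted p was 0.0507, for the mitochondrial arginine tRNA (higher) and for Snord66 (lower). How many passed varied with the fit. DESeq2 called 17 of 218, 7.8%. It called 8 of the 20 mitochondrial tRNAs tested, each higher, and 4 of the 69 cytosolic tRNAs tested, each lower. The cytosolic share was below that over all features. A fit of these 9 libraries alone, without the other diets, called 36 of 167, 21.6%, among them 11 mitochondrial tRNAs higher and 17 cytosolic tRNAs lower. How many of each class that fit tested is not given here. Without control libraries 1 and 2, an alternative added after the data were seen, edgeR called 21 of 251, 8.37%, with 16 higher and 5 lower. Without a low-count filter it called 1.34% of 820 features, with all entries kept 0.298% of 336, with RLE factors or total counts 1.38% of 218, without entries that share reads 0.93% of 215, and with 1 library left out between 0% and 1.4%. With a block for the replicate number in the titles or for the library number it called 3.21% or 6.42% of 218.

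The leading RNAs are printed here because the text turns on them. The first 5 are the mitochondrial tRNAs with the smallest p-values among features that were higher, read from the plus strand of the mitochondrial genome (GENCODE M21 transcripts, build GRCm38), with the anticodon in capitals.
mt-tRNA-Arg-TCG-1 (chrM:9808-9875): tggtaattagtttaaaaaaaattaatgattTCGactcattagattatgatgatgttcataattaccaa
mt-tRNA-Asp-GTC-1 (chrM:6942-7011): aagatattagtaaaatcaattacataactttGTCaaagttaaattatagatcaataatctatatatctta
mt-tRNA-Gly-TCC-1 (chrM:9391-9458): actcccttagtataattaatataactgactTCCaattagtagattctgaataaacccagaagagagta
mt-tRNA-Ile-GAT-1 (chrM:3706-3774): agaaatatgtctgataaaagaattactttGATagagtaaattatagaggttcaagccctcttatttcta
mt-tRNA-Leu-TAG-1 (chrM:11671-11741): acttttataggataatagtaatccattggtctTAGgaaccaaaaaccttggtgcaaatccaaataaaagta
Snord66 (chr16:20684239-20684313, plus strand) is the snoRNA that was lowest, with TGATGA, the letters of the C box, and the last CTGA, those of the D box, in capitals.
Snord66: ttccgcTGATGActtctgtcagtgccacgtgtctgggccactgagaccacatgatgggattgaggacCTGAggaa
Searched on the strand of the transcript, TGATGA occurs in 67.7%, and CTGA in all, of the 65 Snord transcripts of 60 to 90 bases in that annotation, so neither sets Snord66 apart.

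Control libraries 1 and 2 stood apart from the other 3, and every result below has to be read with that in view. The kept reads per library, those in features left after repeated entries were dropped, ran from 23663 to 81850 in the control group. In the low-protein group they ran from 41483 to 245035. Over all entries, some of which list the same reads, the counts ran from 47189 to 171892 and from 100741 to 711826. The TMM factors, which scale libraries so that most features match, were 0.53 and 0.57 in control libraries 1 and 2, 1.05, 1.12 and 0.95 in control libraries 3 to 5, and between 0.74 and 0.99 in the low-protein libraries. A sum of 4 features that mark sperm in this series (Gm24187, Gm23935 and Gm24270, annotated as microRNA hairpins, and the selenocysteine tRNA) came to 104221 and 57460 RPM (reads scaled to a fixed total, before TMM) in control libraries 1 and 2, to 11839, 7938 and 6424 in control libraries 3 to 5, and to between 27192 and 67185 in the low-protein libraries. The low-protein libraries therefore lay inside the range of the controls but above 3 of the 5. The hairpins made up nearly all of that sum. The selenocysteine tRNA, the fourth marker, did not follow it: its level ran from 334 to 931 RPM in the controls and from 410 to 984 in the low-protein libraries, against a median of 7059 in the control sperm libraries. Of the 2 printed below, Gm23935 has the same letters as Gm24270, and Gm24187 differs from it by G11A, counted from the 5′ end and set in capitals, so reads cannot be assigned between the copies with certainty. The same reads may be counted under more than 1 of these names. The sum may therefore be inflated, and the hairpins are not separate markers.
Gm23935 (chr16:11144125-11144181, plus strand): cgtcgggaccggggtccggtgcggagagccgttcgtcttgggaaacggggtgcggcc
Gm24187 (chr13:9834469-9834525, minus strand): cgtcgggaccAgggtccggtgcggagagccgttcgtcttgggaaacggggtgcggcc
The part of sperm RNA in these results was not tested. In whole tissue, fewer cells of a type and less RNA per cell cannot be told apart. Features taken as markers of the caput, the first segment of the epididymis, were near 0 in both groups: their sum of 3 was 33 to 281 RPM in the control and 22 to 145 in the low-protein libraries, against a median of 5228 in control caput. The sum in control caput rested on Gm22193 and Gm26109, with medians of 2405 and 2454 RPM there. Gm24148 did not set the caput apart, with a median of 40.5 RPM in control caput and 0 to 155 in the control cauda libraries. Of the 4 cauda markers, Gm26461, whose counts track those of 7SL, was abundant in all 9 libraries, from 88298 to 222374 RPM. The others varied more: Gm22220 ran from 435 to 1112 in the controls and from 932 to 2121 in the low-protein libraries, Rpph1 from 169 to 1070 and from 457 to 564, and Gm24245, which has the same letters as the sperm marker Gm23935, from 0 to 12804 and from 1133 to 6608.

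**Figure D1:**
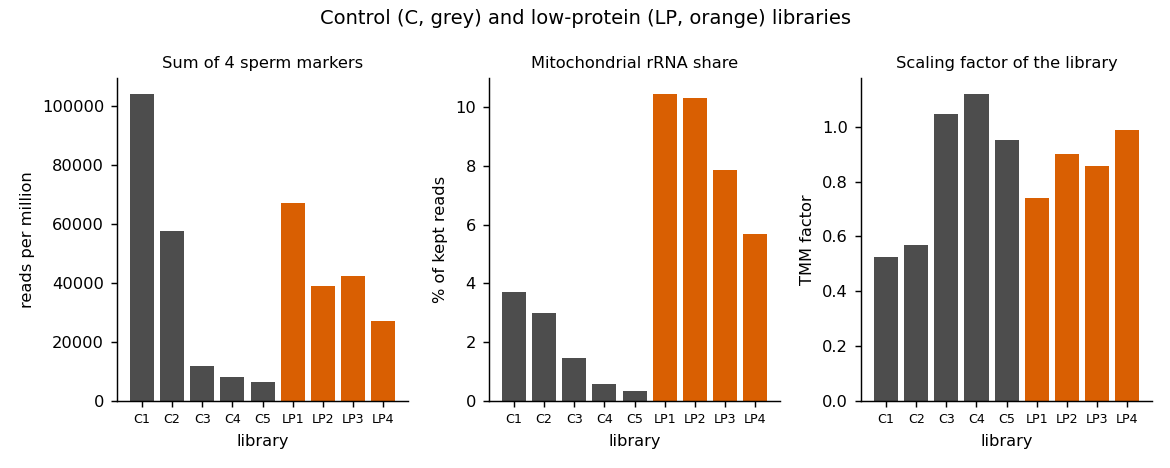
Bars give, for each control (C, grey) and low-protein (LP, orange) library, the summed level of 4 sperm markers in RPM, the share of reads from mitochondrial rRNA in percent, and the TMM scaling factor. Control libraries 1 and 2 have the lowest factors (0.53 and 0.57) and the highest mitochondrial rRNA shares of the controls (3.72% and 2.99%), and all 4 low-protein libraries lie above every control in that share.

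Among whole RNA classes, mitochondrial tRNAs and ribosomal RNAs were the ones whose groups did not overlap. Mitochondrial tRNAs took 3.93%, 4.48%, 7.14%, 5.63% and 3.55% of reads in control libraries 1 to 5 and 8.22%, 10.1%, 9.30% and 12.7% in low-protein libraries 1 to 4. The means were 4.95% ± 1.45 (SD, n = 5) and 10.1% ± 1.90 (SD, n = 4), and every low-protein library lay above every control. The two-sided exact permutation test gave p = 0.0159, the smallest that 4 against 5 libraries allow, and 0.0635 after adjustment over the 8 classes, which misses 0.05. The ribosomal class stood at 4.20% ± 2.47 (SD, n = 5) and 11.9% ± 2.74 (SD, n = 4), with the same exact p of 0.0159 and adjusted 0.0635. Nearly all of that gap came from the mitochondrial ribosomal RNAs. Their share was 3.72%, 2.99%, 1.46%, 0.565% and 0.347% in the controls and 10.5%, 10.3%, 7.87% and 5.70% in the low-protein libraries, again without overlap. Split off after the data were seen, mitochondrial rRNA gave an exact permutation p of 0.0159, 0.0714 adjusted over 9 classes, while the remaining ribosomal reads, mostly 5S, went from 2.38% ± 1.04 to 3.36% ± 0.602 with overlap (exact p = 0.159).

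**Figure D2:**
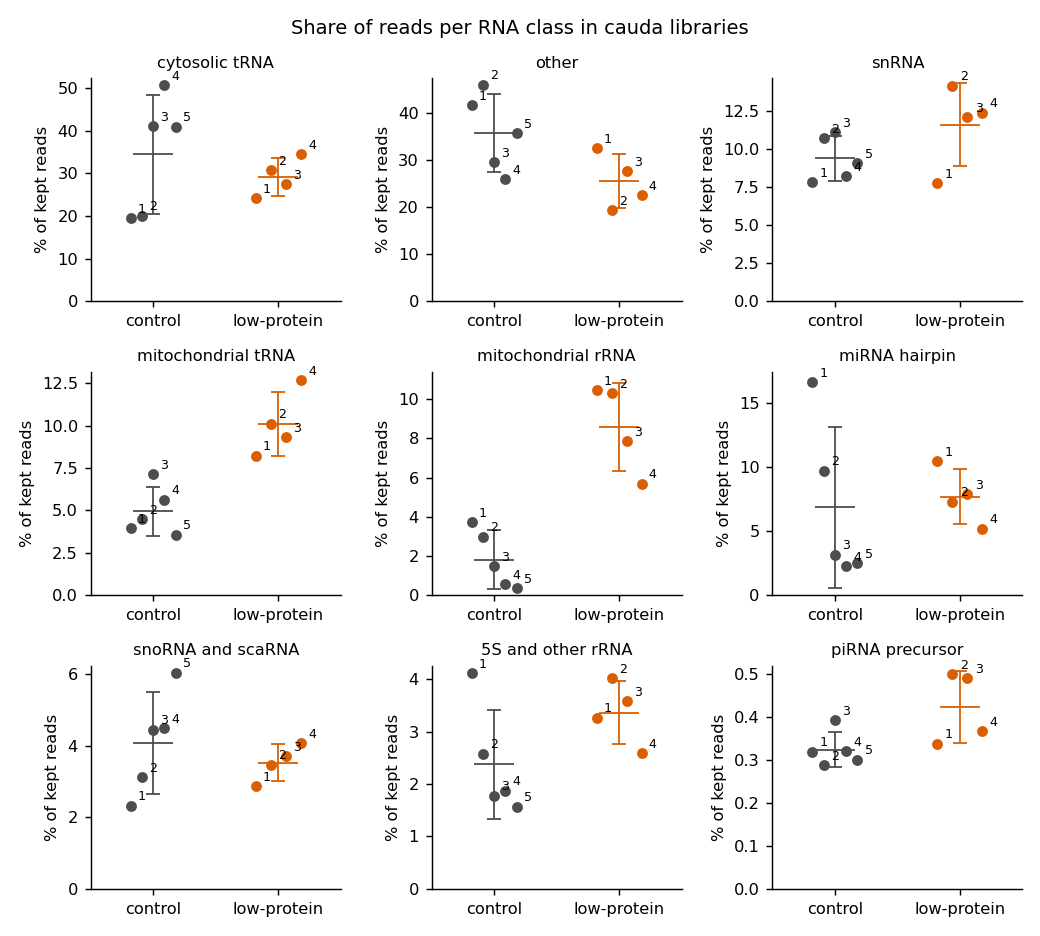
Each point is 1 library, numbered by its replicate, bars are means with SD, and the vertical axis is the percent of kept reads in 9 RNA classes. Mitochondrial tRNA (3.55% to 7.14% against 8.22% to 12.7%) and mitochondrial rRNA (0.347% to 3.72% against 5.70% to 10.5%) are the classes in which control (grey) and low-protein (orange) libraries are fully separated.

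Rn7s1 and Gm26461 held 17.9% and 17% of control reads with nearly equal counts in each library, so 7SL reads may be counted more than once, which would raise the share of other RNAs and lower the rest. Without Gm26461 and 6 other entries of that kind, an alternative added after the data were seen, mitochondrial tRNAs were at 6.27% ± 1.50 and 12.1% ± 1.83, still without overlap (exact permutation p = 0.0159, 0.127 adjusted). The ribosomal class then overlapped, with control library 1 at 11.3% and low-protein library 4 at 9.62% (exact permutation p = 0.0317, 0.127 adjusted), while mitochondrial rRNA alone did not overlap, at 0.426% to 5.38% in the controls and 6.62% to 13.4% in the low-protein libraries.

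The other classes overlapped. Cytosolic tRNAs took 19.4%, 20.1%, 41%, 50.6% and 40.9% of reads in the controls and 24.1%, 30.8%, 27.4% and 34.5% in the low-protein libraries, so that the controls fell on both sides (exact permutation p = 0.508). Against control libraries 3 to 5 alone the low-protein mean was lower by 15.0 percentage points, and against control libraries 1 and 2 alone it was higher by 9.43, so no direction can be given for this share. Reads of other RNAs, mostly the 7SL entries Rn7s1 and Gm26461, averaged 35.8% ± 8.29 and 25.5% ± 5.78 (exact permutation p = 0.0794, 0.159 adjusted). Small nuclear RNAs averaged 9.41% ± 1.47 and 11.6% ± 2.73, snoRNAs with the related scaRNAs 4.08% ± 1.43 and 3.53% ± 0.506, and microRNA hairpins 6.86% ± 6.27 and 7.71% ± 2.18, with exact permutation p-values of 0.159, 0.508 and 0.810. Precursors of piRNAs, the small RNAs that silence transposons in germ cells, stayed under 1 percent, at 0.324% ± 0.0405 and 0.424% ± 0.0835 (exact permutation p = 0.0794).

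Mitochondrial tRNAs were higher in the low-protein group almost as a body. From here levels are CPM after TMM scaling, and differences are log2 fold changes of low-protein minus control with the standard error. Of the 22 mitochondrial tRNAs 20 had enough reads, all 20 had a positive difference, 8 at an unadjusted p under 0.05 and 0 after adjustment, with a median of 0.79 beside a median of -0.22 over all 218 features. In 11 of the 20, every low-protein library lay above every control, against 8.72% of all features tested. The 13 tested on the plus strand had a median of 0.98 and the 7 on the minus strand one of 0.73, and 7 and 4 of them respectively did not overlap. The median was 1.25 without control libraries 1 and 2 and 0.92 without control libraries 3 to 5, alternatives added after the data were seen.

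The arginine tRNA of mitochondria, mt-tRNA-Arg-TCG-1, led the list. Its level was 2983, 2430, 4491, 1723 and 898 in control libraries 1 to 5 and 8789, 10706, 9422 and 10522 in low-protein libraries 1 to 4. The lowest low-protein library was therefore well above the highest control, and the 4 low-protein libraries lay close together. The difference was 1.97 ± 0.50, a ratio of group means of 3.94, with an edgeR adjusted p of 0.0507. The table lists this RNA a second time as mt-Tr, with far fewer reads (7, 2, 17, 11 and 0 in the controls and 20, 113, 23 and 23 in the low-protein libraries), and only the tRNA name was tested.

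Next came the aspartate tRNA, mt-tRNA-Asp-GTC-1, with 1379, 795, 1588, 797 and 180 in the controls and 2871, 4073, 3289 and 4209 in the low-protein libraries, a difference of 1.91 ± 0.54 (edgeR adjusted p = 0.0946). The glycine tRNA, mt-tRNA-Gly-TCC-1, stood at 2053, 1723, 2559, 2954 and 674 against 6185, 5870, 7949 and 6808, a difference of 1.74 ± 0.55 (edgeR adjusted p = 0.0946). In both, control library 5, the shallowest with 23663 kept reads, was the lowest, and the groups did not overlap. The leucine tRNA mt-tRNA-Leu-TAG-1, which reads CUN codons, had 449, 177, 746, 516 and 180 against 1391, 1489, 1432 and 1411 (1.72 ± 0.54, edgeR adjusted p = 0.0946). The isoleucine tRNA mt-tRNA-Ile-GAT-1 had 128, 88, 438, 141 and 0 against 444, 781, 605 and 668 (1.78 ± 0.54, edgeR adjusted p = 0.0946). These 2 rest on few reads: 0 to 37 per control library for isoleucine and 4 to 63 for leucine.

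On the minus strand the asparagine tRNA mt-tRNA-Asn-GTT-1 (chrM:5089-5159) and the glutamate tRNA mt-tRNA-Glu-TTC-1 (chrM:14071-14139) were the 2 with the smallest p. Asparagine had 1732, 839, 1671, 1360 and 404 in the controls and 2575, 3016, 3168 and 3243 in the low-protein libraries (1.30 ± 0.48, edgeR adjusted p = 0.130). Glutamate had 5645, 5390, 5415, 3306 and 3413 against 9145, 9865, 8312 and 12206 (1.09 ± 0.41, edgeR adjusted p = 0.130). Neither overlapped. The smallest difference in the set was that of mt-tRNA-Leu-TAA-1, 0.01 ± 0.51, and the most abundant mitochondrial tRNA, mt-tRNA-Val-TAC-1, averaged 17494 ± 8057 (SD, n = 5) and 29275 ± 3028 (SD, n = 4) with overlap, so the values within the set ranged widely.

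**Figure D3:**
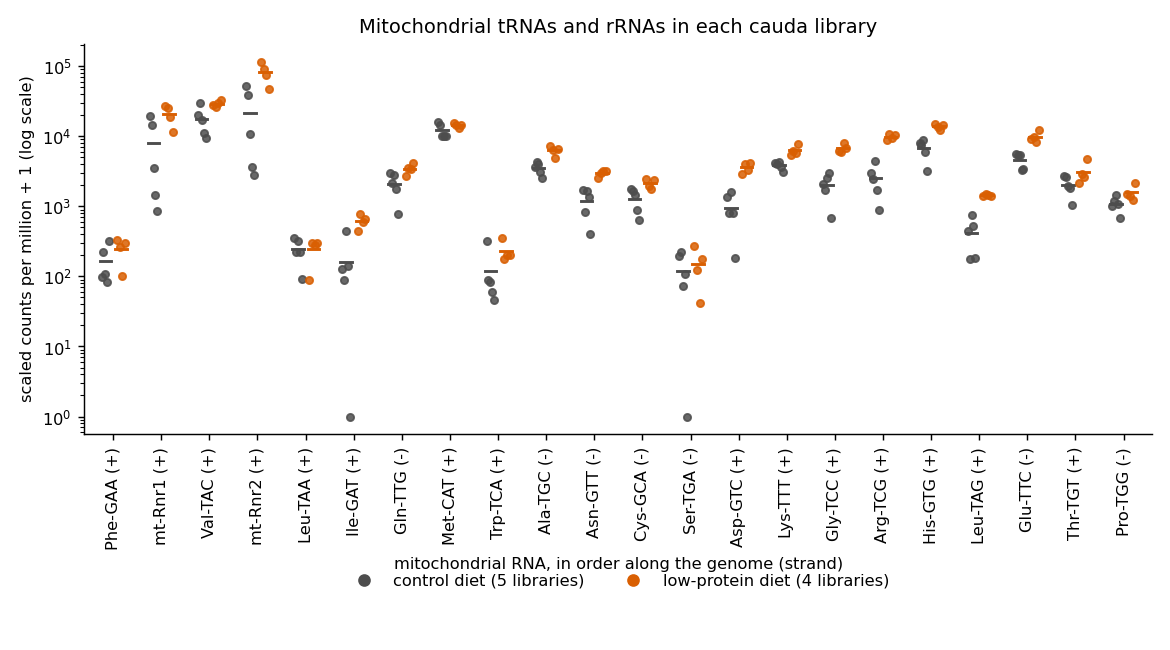
Points are libraries (grey, 5 control; orange, 4 low-protein), short lines are group means, and the vertical axis is the TMM-scaled CPM plus 1 on a log scale, with mitochondrial RNAs in order along the genome. Arginine, aspartate, glycine and leucine (TAG) tRNAs show gaps between the groups, while the controls of the rRNAs mt-Rnr1 and mt-Rnr2 spread from 853 to 19630 and from 2829 to 51770.

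The mitochondrial ribosomal RNAs also had higher means in the low-protein libraries, but a wide spread among the controls. The large-subunit RNA, mt-Rnr2 (chrM:1094-2675), had 51770, 38832, 10699, 3692 and 2829 in the controls and 115802, 90741, 74167 and 46941 in the low-protein libraries. On this scale the lowest low-protein library lay under the highest control, unlike in the unscaled shares, since the factors of control libraries 1 and 2 are the lowest. The difference was 1.93 ± 0.69 (edgeR adjusted p = 0.130). The small-subunit RNA, mt-Rnr1 (chrM:70-1024), had 19630, 14446, 3495, 1430 and 853 against 27167, 25462, 18723 and 11562, a difference of 1.38 ± 0.71 (edgeR adjusted p = 0.264). In both, the 2 controls that stand apart by their sperm-marker hairpins were also the highest controls, and the part of that in the result was not tested.

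Cytosolic tRNAs went the other way. Of 154 kept genes 69 were tested, 64 had a negative difference, 20 of them at an unadjusted p under 0.05 and 0 after adjustment, and the median was -0.91 beside -0.22 over all features. In 20 of the 69 every low-protein library lay below every control, against 10.1% of all features tested, and in 2 every one lay above. These counts are after TMM scaling, which raised control libraries 1 and 2 the most (factors 0.53 and 0.57). Several of these groups overlapped before scaling, as given below. The median was -0.91 without control libraries 1 and 2 and -0.45 without control libraries 3 to 5. Scaling matters to this class: with RLE factors in place of TMM the median of all features moved by 0.12, to -0.11, and the cytosolic tRNA median to -0.80. Genes for 1 tRNA are often nearly identical, so reads of single copies are uncertain, and anticodon sums are the safer unit. Tested as sums, 40 of 42 anticodons were negative, 14 at an unadjusted p under 0.05 and 0 after adjustment (edgeR, lowest adjusted p = 0.0799), with a median of -0.97. That fit tested 191 features and called 2, 1.05%, neither of them a cytosolic tRNA.

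Glutamate and lysine tRNAs had the widest gaps in level among the cytosolic tRNAs that were lower. The lysine tRNA tRNA-Lys-CTT-3 had 27585, 26948, 31232, 45562 and 61121 in the controls and 19680, 18305, 16000 and 14756 in the low-protein libraries, and the copy tRNA-Lys-CTT-2 followed it. After TMM scaling all low-protein libraries lay below all controls, with a difference of -1.16 ± 0.40 (edgeR adjusted p = 0.125). Glutamate tRNA tRNA-Glu-CTC-1 had 31146, 22442, 48898, 61609 and 42125 against 16898, 14098, 19107 and 19707, a difference of -1.24 ± 0.45 without overlap (edgeR adjusted p = 0.130). The other glutamate anticodon, tRNA-Glu-TTC-1, differed by -0.19 ± 0.45, with overlap. Initiator methionine tRNA tRNA-iMet-CAT-1, which starts every protein chain, had 18508, 19880, 16694, 15004 and 29820 against 8582, 9355, 5468 and 10398 (-1.24 ± 0.49, edgeR adjusted p = 0.130), also without overlap on that scale. Before scaling, the groups overlapped for tRNA-Lys-CTT-3, tRNA-Glu-CTC-1 and tRNA-iMet-CAT-1. The unscaled share of tRNA-Lys-CTT-3 was 1.44% and 1.51% in control libraries 1 and 2 and 3.22%, 5.03% and 5.75% in control libraries 3 to 5. For tRNA-Glu-CTC-1 it was 1.62% and 1.26%, and 5.04%, 6.80% and 3.96%.

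Arginine tRNAs gave the smallest p-values among cytosolic tRNAs, followed by tRNA-Lys-CTT-3 and then tRNA-Ser-GCT-4, and the arginine and serine tRNAs were at low levels. The tRNA-Arg-CCG-3 had 1123, 884, 1730, 2462 and 2650 in the controls and 207, 510, 585 and 916 in the low-protein libraries (-1.67 ± 0.53, edgeR adjusted p = 0.0946), with overlap between control library 2 and low-protein library 4. For tRNA-Arg-CCT-1 the values were 770, 177, 498, 586 and 898 against 178, 175, 182 and 223 (-1.63 ± 0.55, edgeR adjusted p = 0.118). For tRNA-Ser-GCT-4 they were 481, 574, 498, 656 and 1078 against 237, 225, 161 and 347 (-1.43 ± 0.50, edgeR adjusted p = 0.130), without overlap on the TMM scale. As a group the 7 tested arginine tRNAs had a median of -1.20, the 9 serine tRNAs one of -0.98, the 3 lysine tRNAs -1.07, the 10 leucine tRNAs -0.93 and the 6 valine tRNAs -0.31. All these members were negative. tRNAs for essential and for other amino acids had similar medians. The essential set held the amino acids that the diet must supply, with arginine counted among them as for growing rodents. Of that set 34 were tested, all negative, median -1.01, beside 34 for other amino acids, 30 negative, median -0.88. For the branched-chain amino acids leucine, isoleucine and valine, 17 were tested, all negative, with a median of -0.69.

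After TMM scaling, the 5 anticodons whose fragments are known from low-protein sperm had lower levels in every low-protein cauda library, in all copies tested. Of 14 kept genes for Gly-CCC, Gly-TCC, Gly-GCC, Lys-CTT and His-GTG 8 were tested, with 4 at an unadjusted p under 0.05, 0 called, and a median of -1.02. On that scale every low-protein library lay below every control in 8 of 8. The same held for 10.1% of all features and for 20 of the 69 cytosolic tRNAs. Before scaling, the groups of tRNA-Gly-GCC-2, tRNA-Gly-CCC-1 and tRNA-His-GTG-2 overlapped, since control libraries 1 and 2 were then much lower. tRNA-Gly-GCC-2 had 12189, 11133, 12891, 16059 and 17245 against 6511, 8849, 5831 and 8839 (-0.89 ± 0.46, edgeR adjusted p = 0.268). For tRNA-Gly-CCC-1 the values were 1636, 1325, 1185, 1758 and 1886 against 592, 768, 363 and 966 (-1.21 ± 0.55, edgeR adjusted p = 0.204). tRNA-His-GTG-2 had 2791, 2076, 1825, 3001 and 5165 against 858, 1356, 1069 and 1634 (-1.27 ± 0.61, edgeR adjusted p = 0.241), and tRNA-Gly-TCC-1 differed by -0.87 ± 0.51. Valine tRNAs, whose fragments are abundant in the epididymis, had differences nearer to 0: tRNA-Val-CAC-2 -0.33 ± 0.51 and tRNA-Val-AAC-1 -0.27 ± 0.53, both with overlap.

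Aspartate tRNA was the exception among cytosolic tRNAs. The most abundant tRNA of the cauda, tRNA-Asp-GTC-1, had 114318, 122813, 115142, 119045 and 90402 in the controls and 149273, 153653, 159592 and 149167 in the low-protein libraries. The second copy, tRNA-Asp-GTC-2, had 12093, 15197, 15782, 16492 and 10194 against 22935, 21017, 23566 and 23025. In both every low-protein library lay above every control on the TMM scale, and these were the only cytosolic tRNAs of the 69 for which that held. Before scaling, tRNA-Asp-GTC-1 held 5.96%, 6.89%, 11.9%, 13.1% and 8.51% of reads in control libraries 1 to 5. On that unscaled measure low-protein library 1 lay under control libraries 3 and 4. The differences were 0.44 ± 0.35 and 0.70 ± 0.38, with edgeR adjusted p-values of 0.401 and 0.287. The selenocysteine tRNA, which also had a positive difference (0.37 ± 0.52), overlapped.

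**Figure D4:**
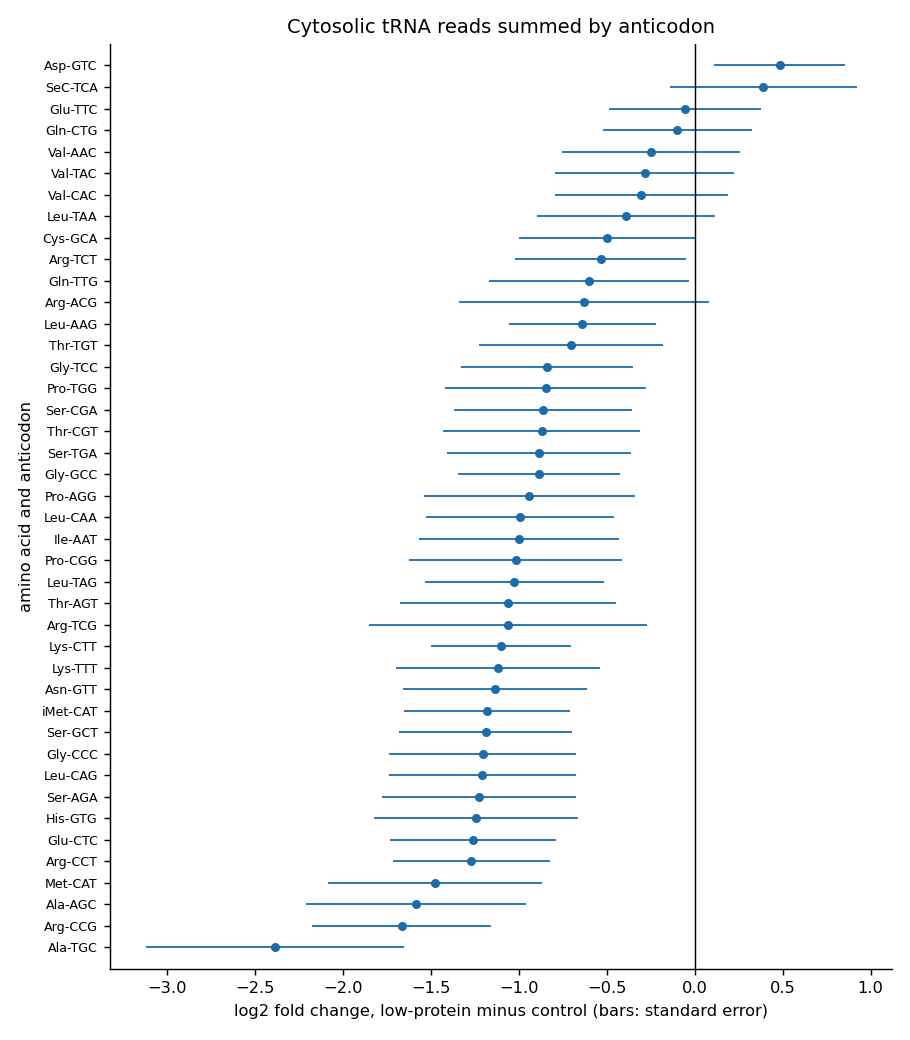
Points give the log2 fold change (low-protein minus control, horizontal axis) of cytosolic tRNA reads summed by anticodon (vertical axis, sorted), with standard errors as bars. Of 42 anticodons 40 lie to the left of 0, and Asp-GTC and SeC-TCA lie to the right.

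Snord66, a C/D box snoRNA, had the largest negative difference of any feature tested. Its level was 96, 133, 142, 270 and 584 in the controls and 0, 46, 20 and 50 in the low-protein libraries, without overlap. The difference was -2.76 ± 0.67 (edgeR adjusted p = 0.0507), but it rests on 3, 3, 12, 23 and 13 reads in the controls and 0, 10, 1 and 2 in the low-protein libraries. Snord49b (chr11:62603079-62603150) had 962, 1281, 1647, 1371 and 3413 against 474, 662, 989 and 743 (-1.26 ± 0.46, edgeR adjusted p = 0.130), with overlap at the edge. Against these, the unnamed snoRNA Gm23262 (chr7:111076060-111076227) was higher, with 64, 0, 83, 152 and 0 against 355, 331, 504 and 173 (2.15 ± 0.69, edgeR adjusted p = 0.0946), on 0 to 13 reads per control library. Over all 76 snoRNAs tested, 34 had a positive and 42 a negative difference, 0 were called, and the median was -0.13, with a range from -0.60 to 0.54 over the alternatives. Named by family, 32 C/D box snoRNAs (Snord) had a median of -0.28 with 21 negative, and 10 H/ACA box snoRNAs (Snora) a median of 0.43 with 10 positive, none of these 10 at an unadjusted p under 0.05. The 2 H/ACA members with the smallest p were Snora81 (0.92 ± 0.56) and Snora70 (1.12 ± 0.69), the 2 scaRNAs tested, Mir1839 and Gm22009, had differences of 1.05 ± 1.31 and 0.64 ± 0.82, and the U3 RNAs Rnu3a and Rnu3b1 0.25 ± 0.41 and -0.30 ± 0.68.

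Spliceosomal snRNAs leaned upward, with 17 of 19 positive, a median of 0.60, 2 at an unadjusted p under 0.05 and 0 called, and 3 of 19 without overlap above, against 8.72% of all features tested. The median was 0.02 with all entries and -0.0028 without the low-count filter, so the lean rests on that choice of entries. The 2 were copies of U2, which pairs with the branch point of introns. Gm26316 (chr11:101604850-101605040) differs from the U2 gene Rnu2-10 by C170T and Gm24497 (chr1:72244213-72244403) by G109C and C186A, counted from the 5′ end over 191 bases. Gm26316 had 1411, 884, 972, 809 and 494 in the controls and 1568, 4459, 2683 and 2278 in the low-protein libraries (1.59 ± 0.48, edgeR adjusted p = 0.0946). Gm24497 had 257, 309, 474, 481 and 45 against 740, 1315, 625 and 1065 (1.51 ± 0.48, edgeR adjusted p = 0.0946). The far more abundant copies had no stable direction: Gm23971, with the same letters as Rnu2-10, averaged 41916 ± 23854 (SD, n = 5) and 34965 ± 5735 (SD, n = 4), and Gm23472, which carries G109C alone, differed by -0.33 ± 0.43. Gm23971 itself differed by -0.26 ± 0.43, and without control libraries 1 and 2 the values of both turned to 0.49 (Gm23971) and 0.44 (Gm23472). Reads of such copies can be split between them by the counting.

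The most abundant single entry was 7SL. Rn7s1 (chr12:69159295-69159594) had 399120, 407667, 144100, 118143 and 190864 in the controls and 221986, 108430, 164454 and 115793 in the low-protein libraries, a difference of -0.72 ± 0.52 with overlap (edgeR adjusted p = 0.368). Gm26461, whose counts follow those of Rn7s1 closely in each library, differed by -0.76 ± 0.54, and without control libraries 1 and 2 both turned positive, at 0.12. The related Rn7s6 (chr6:69516339-69516629), 85% identical to Rn7s1, had 1379, 1060, 415, 399 and 494 against 1835, 2390, 2401 and 1708 without overlap (1.50 ± 0.57, edgeR adjusted p = 0.130). The hairpin Gm47304, the member of its class with the smallest p (1.51 ± 0.60), lies inside Rn7s6 on the same strand and counts the same reads. Of the 12 tested microRNA hairpins 4 were positive and 8 negative, with a median of -0.13. That median turned to 0.77 without control library 1 and to 2.03 without control libraries 1 and 2. In the latter fit 5 hairpins were called higher, where 8.37% of all 251 features were called. Those 2 libraries were set apart in part by such hairpins. Of the 5, Gm23935, Gm24270 and Gm24245 have the same letters, and Gm47304 lies inside Rn7s6. No direction can therefore be given for the hairpins. The next after Gm47304 was Gm49346 (0.96 ± 0.56), which overlaps Snora81. The remaining RNAs differed little against their errors: the 5S feature Gm25018 by 0.17 ± 0.53, the Y RNAs Rny1 and Rny3 by 0.46 ± 0.44 and -0.12 ± 0.60, and the RNase P RNA Rpph1, which trims the 5′ ends of tRNAs, by -0.34 ± 0.74. Of 278 piRNA precursors 5 were tested, all positive with overlap and a median of 0.27, the smallest p being those of pi-Nsd1.1 (0.96 ± 0.76) and pi-Lpp.1 (0.50 ± 0.49).

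The low-protein effect in the cauda was set against that in sperm from the same segment and in the caput, in 1 fit over the control and low-protein libraries of the 3 sources, 29 in all. In sperm (5 against 5 libraries) edgeR called 0 of 195 features, 0%, with 3 at an unadjusted p under 0.05, and the difference between the cauda and sperm effects was called for 0 of 195, with 13 at an unadjusted p under 0.05 and a lowest adjusted p of 0.169. The mitochondrial tRNA median was 0.93 in the cauda and -0.15 in sperm in this fit, where 13 of the 19 tested were negative in sperm, but the difference did not pass for any of them. For mt-tRNA-Arg-TCG-1 the effects were 2.10 ± 0.56 and -0.60 ± 0.53 (difference 2.70, edgeR adjusted p = 0.169). For tRNA-Gly-CCC-1 they were -1.08 ± 0.66 and 0.71 ± 0.61, and for tRNA-His-GTG-2 -1.12 ± 0.63 and 0.58 ± 0.57, each difference with an edgeR adjusted p of 0.626.

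By the same test the low-protein effect in the caput differed from that in the cauda for many features. The difference between the 2 effects was called for 30 of 195 features, 15.4%. Among them were 12 of the 19 mitochondrial tRNAs tested, each with the higher effect in the cauda. Of 62 cytosolic tRNAs 8 were called, each with the lower effect in the cauda, a share below that over all features. Of 71 snoRNAs 8 were called, 6 with the higher and 2 with the lower effect in the cauda. mt-tRNA-Arg-TCG-1 was at 2.10 ± 0.56 in the cauda and -2.73 ± 0.56 in the caput, a difference of 4.82 (edgeR adjusted p = 1.75e-05). mt-tRNA-Asp-GTC-1 was at 2.02 ± 0.66 and -3.49 ± 0.69, and mt-tRNA-Gly-TCC-1 at 1.83 ± 0.56 and -2.75 ± 0.56, with adjusted p-values of 1.93e-05 each. Of the 19 mitochondrial tRNAs, all 19 had a positive effect in the cauda and 18 a negative one in the caput. In the other direction tRNA-Glu-CTC-1 was at -1.15 ± 0.55 and 1.87 ± 0.52 (difference -3.03, edgeR adjusted p = 0.00482), and tRNA-Pro-CGG-1 at -0.90 ± 0.58 and 2.94 ± 0.72 (difference -3.85, edgeR adjusted p = 0.00354). Snord66 was at -2.60 ± 0.82 and 1.02 ± 0.73 (difference -3.63, edgeR adjusted p = 0.0193).

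These differences lean on the caput side, where edgeR called 43 of 195 features, 22.1%, against 0 of 195 in the cauda. The caput low-protein libraries went against their label in part: the sum of 3 caput markers ran from 0 to 2014 RPM with a median of 247, against 2486 to 6047 with a median of 5228 in control caput, although 1 of the 3, Gm24148, had a higher mean there (500.1 against 107). The cauda marker Gm26461 rose there, with 1096 to 20181 against 458 to 1473 (2.75 ± 0.74, edgeR adjusted p = 0.00724). The part of this in the differences was not tested. Without the 2 shallowest of those caput libraries, at 912 and 2353 kept reads, 27 of 223 differences were called, 25 of them among the 30, and that of mt-tRNA-Arg-TCG-1 was 5.10 ± 0.92 (edgeR adjusted p = 0.000118).

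**Figure D5:**
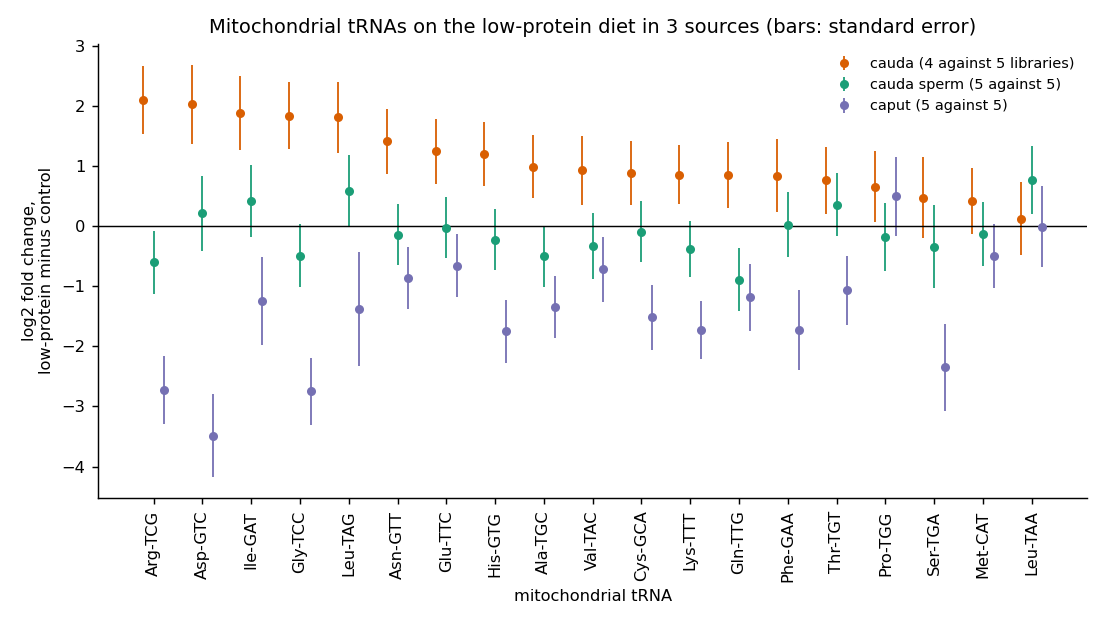
Points give the log2 fold change (low-protein minus control, vertical axis) of 19 mitochondrial tRNAs in cauda (orange), cauda sperm (green) and caput (violet), with standard errors as bars. All 19 lie above 0 in the cauda, 13 lie below 0 in sperm and 18 lie below 0 in the caput.

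Within the cauda the high-fat diet, tested against its own control with 4 and 5 libraries, gave 0 called features of 218, with 18 at an unadjusted p under 0.05. The difference between the low-protein and the high-fat effect was called for 0 of 218, with 17 at an unadjusted p under 0.05. The mitochondrial tRNA median was 0.59 on the high-fat diet and 0.79 on the low-protein diet, and the cytosolic tRNA median 0.20 and -0.91. mt-tRNA-Arg-TCG-1 was at 1.17 ± 0.49 on the high-fat diet (edgeR adjusted p = 0.392) beside 1.97 ± 0.50 on the low-protein diet, and Snord66 at -0.64 ± 0.53 beside -2.76 ± 0.67. Other leading RNAs had similar values on both diets. mt-tRNA-Leu-TAG-1 was at 1.89 ± 0.53 on the high-fat diet beside 1.72 ± 0.54, and mt-tRNA-Asn-GTT-1 at 1.17 ± 0.47 beside 1.30 ± 0.48.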

How the data were processed

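The authors deposited 1 table of raw read counts, whole numbers for each named small RNA, covering 111 libraries. The submitters' processing notes name cutadapt, DESeq2 and mm10, without versions or roles, and the aligner and counting rules were not given in the sources used here. Of 1268 entries 1045 features were kept, which hold 51.1% of summed counts. Second names and entries that listed the same reads within 5.0% were dropped. Of 56 5S rRNA entries, 55 were dropped by name, without that comparison, and the most abundant was kept. Libraries were grouped by title. Counts of all 18 cauda libraries with 4 diets were fitted with edgeR 4.0.16 in R 4.3.3 (TMM factors, filterByExpr, robust quasi-likelihood F test), p-values were adjusted by Benjamini-Hochberg over all tested features, and the code was tested on simulated data. Class shares were compared by two-sided exact permutation tests in SciPy 1.17.1. Named features are those with the 8 smallest p-values per direction, the 8 most abundant, the most abundant copy of 9 fragment tRNAs and 2 per list. Replicate numbers were not used to pair libraries in the main fit. Members, lists and rules were chosen with earlier results of these data known. Alternatives were other scaling factors, DESeq2 1.42.0, filters, blocks, anticodon sums and left-out libraries.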

Additional observations from a re-analysis of the deposited data

Results flagged for a closer look

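Among 74 groups of 4 or 5 libraries, 4 held 1 library far from the rest, where chance alone gives about 1 in 20 such groups. For tRNA-Arg-CCT-1 low-protein library 4 was highest at 222.8 TMM-scaled CPM, and for Snord49b control library 5 was highest at 3413. Control library 5 was lowest for tRNA-Asp-GTC-1 at 90402, and control library 2 was lowest for tRNA-Val-AAC-1 at 4771.

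The low-protein effect differed between cauda and caput for 13 of the named RNAs by an edgeR test of the difference itself, out of 116 differences examined in sperm and caput. Over all features that test called 30 of 195 between cauda and caput, 15.4%, and 0 of 195 between cauda and sperm. Some of the 13 were named for their small p-values in the cauda itself, so their number is not separate support. On the log2 scale, cauda minus caput, the differences were 4.82 for mt-tRNA-Arg-TCG-1, 5.51 for mt-tRNA-Asp-GTC-1, 4.58 for mt-tRNA-Gly-TCC-1, 3.13 for mt-tRNA-Ile-GAT-1, 3.18 for mt-tRNA-Leu-TAG-1 and 2.28 for mt-tRNA-Asn-GTT-1. They were -3.63 for Snord66, -3.03 for tRNA-Glu-CTC-1, -2.41 for tRNA-Glu-TTC-1, -3.85 for tRNA-Pro-CGG-1, -3.83 for tRNA-Pro-AGG-1, -3.28 for Gm26461 and -5.11 for Rpph1. Adjusted p-values ran from 1.75e-05 (mt-tRNA-Arg-TCG-1) to 0.0391 (mt-tRNA-Leu-TAG-1). Gm26461 and Rpph1 are themselves cauda markers, and 2 of the 3 caput markers, Gm22193 and Gm26109, were lower in the low-protein caput libraries, while Gm24148 had a higher mean there (500.1 against 107 RPM). The part of this in the differences was not tested.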

How the results depend on the processing

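The direction of the mitochondrial and cytosolic tRNA medians held under every alternative that gave one, at 0.43 to 1.25 and -1.37 to -0.45, and the count of calls did not hold. Against 0 calls (0 higher, 0 lower), there were 3 with RLE factors and 3 with total counts (2 higher and 1 lower in each), 17 with DESeq2 (12 and 5), 11 without a low-count filter (11 and 0), 36 with only the 9 libraries (17 and 19), 1 with all entries (0 and 1), 2 with anticodon sums (1 and 1), 21 without control libraries 1 and 2 (16 and 5), 0 without control libraries 3 to 5 and 2 without entries sharing reads (1 and 1). With 1 library left out there were 0 to 3 calls (higher 0 to 2, lower 0 to 1), with calls without control library 1, 3 or 5. The replicate block gave 7 calls by title number (6 and 1) and 14 by library number (11 and 3). Same-numbered libraries deviated together in some pairs only, with r of 0.26, -0.21, 0.16 and 0.28 by title number. By library number r was 0.32, 0.0077, -0.0088 and 0.22, and not every library correlated best with its own number. So few values cannot show whether equal numbers share a batch or a mouse, and the labels do not say. Without the filter, 15 cauda and caput differences and 1 low-protein and high-fat difference were called. Anticodon sums gave 2 calls with TMM, 1 with RLE factors, 6 with total counts and 0 to 3 with 1 library left out.

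Some small values changed sign, and the cause was not tested. Of the class shares, without control libraries 3 to 5 cytosolic tRNA differed by 9.43, hairpins by -5.47 and snoRNAs by 0.806 percentage points, snRNAs by -0.0308 with all entries, and hairpins by -0.296 to 3.29 with 1 library left out. Without control libraries 1 and 2 the log2 differences were 0.12 for Rn7s1 and Gm26461, 0.49 for Gm23971, 0.44 for Gm23472, 0.016 for tRNA-Glu-TTC-1, 1.59 for Rnu3b1 and 1.67 for Rpph1. Without control libraries 3 to 5 they were 0.27 for tRNA-Gln-CTG-2, 0.076 for tRNA-Val-AAC-1, 0.40 for tRNA-Ala-AGC-7, -0.14 for Mir1839, -0.16 for CT010467.1, -0.37 for Gm25018 and 0.88 for Rny3. Without the filter they were 0.16 for Gm23971, 0.091 for Gm23472, 0.25 for tRNA-Gln-CTG-2, 0.13 for tRNA-Glu-TTC-1, 0.024 for tRNA-Val-CAC-2, 0.080 for tRNA-Val-AAC-1, 0.17 for Rnu3b1, 0.22 for Rny3 and 0.086 for Rpph1. With all entries they were -0.079 for tRNA-SeC-TCA-1, -0.13 for Rnu3a, -0.083 for Gm25018 and -0.011 for Rny1. Total counts gave 0.014 for Gm23971, 0.14 for Rnu3b1 and 0.085 for Rpph1, and tRNA-Gln-CTG-2 was at 0.012 with RLE factors and with DESeq2. The replicate block gave 0.35 for Rnu3b1 and 0.71 for Rpph1 by library number, and 0.038 for Rpph1 by title number. With 1 library left out the ranges were -0.34 to 0.081 for Gm23971, -0.41 to 0.032 for Gm23472, -0.18 to 0.17 for tRNA-Gln-CTG-2, -0.27 to 0.023 for tRNA-Glu-TTC-1, -0.51 to 0.19 for Rnu3b1, -0.30 to 0.41 for Rny3 and -0.58 to 0.42 for Rpph1. Depth limits RNAs with few reads, such as Snord66 and mt-tRNA-Ile-GAT-1.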
